A study of Mus musculus with 8 samples.

Results

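The complement and coagulation genes encode the plasma proteases, cofactors, pore proteins, fibrin chains and receptors of the complement cascade and of blood clotting. They were compared by ribosome profiling between livers of mice fed a selenium (Se) deficient diet (0 Se) and of mice whose diet was supplied with Se at 0.1 ppm (0.1 Se). The members were 51 gene symbols taken from a fixed list, matched to the gene column of the authors' deposited table. Of these, 39 had a row among the 7500 genes of the table, 19 of complement and 20 of coagulation and fibrinolysis. The list used no measured value, although it was chosen with earlier results of these data known.

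All mice were male wild-type FVB/N animals kept for 6 weeks from weaning on a torula yeast diet low in Se. The 0.1 Se diet had sodium selenite added and the 0 Se diet had none. The labels list 8 libraries from 4 mice, that is 2 mice per diet and 2 libraries per mouse. Ribosome profiling sequences short pieces of mRNA that a ribosome shields from digestion, and the number of such footprints on a coding sequence gives how many ribosomes were on it. The deposited table holds 1 log2 fold change (0.1 Se over 0 Se), 1 p-value and 1 abundance per gene. It gives no value for a single mouse, so every error below was derived from the p-values, as a standard error (SE) or an implied 95% interval.

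Complement is a chain of plasma proteases that tags surfaces for uptake by phagocytes and ends in a pore. It starts from antibody through C1, from sugars through the lectins, or by slow activation of C3, and all 3 routes meet at C3. Coagulation is a second chain of proteases, in which thrombin turns fibrinogen into fibrin, and plasmin later dissolves the clot. Hepatocytes secrete most of these proteins, whereas C1q is made mainly by macrophages, thrombomodulin by endothelium, and the C3a and C5a receptors sit mostly on leukocytes.

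None of the 39 genes passed the study's thresholds, an edgeR adjusted p-value under 0.05 and over 1.5-fold; a gene that passed both is referred to as called. The same rule called 107 of 10398 tested genes, 1.03%. Of the members, 5 had an unadjusted p-value under 0.05, that is 12.8% of 39, beside 10.9% of the genes with a row. These were C1qb, C1qa and C4b, listed higher on 0.1 Se, and F5 and Hrg, listed lower. Of these, C1qb alone kept a p-value under 0.05 under both of the other scalings described next (0.00086 and 0.017). The members were more abundant than most genes. At a log2 CPM (counts scaled to library size) of 8 or higher, 13.6% of 22 members had an unadjusted edgeR p-value under 0.05, beside 18.4% of 402 genes. No member exceeded 1.5-fold in either direction, while 1278 of 7500 genes did, mostly at low abundance, and 10 members exceeded 1.2-fold. The log2 fold change of the members ran from -0.35 for Hrg to 0.54 for C1qb with a median of 0.06, which is also the median of all genes with a row.

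The sign of the members was split, with 21 higher and 18 lower on 0.1 Se (53.8% higher, beside 50.4% of all genes with a row). This split moved with the scaling between the diets, to 26 of 39 higher when fold changes were centred on abundant genes (log2 CPM 8 or higher) and to 18 of 39 when centred on genes of middle abundance (log2 CPM 4 to 6). CPM stands for counts scaled to library size. Of the 19 complement genes, 13 were higher and 6 lower with a median log2 fold change of 0.12. Of the 20 coagulation and fibrinolysis genes, 8 were higher and 12 lower with a median of -0.09. The table has no row for 2898 of the tests, all with p-values above 0.311, so genes with little change are under-represented in these counts and medians, for the members and for all genes alike.

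**Figure D1:**
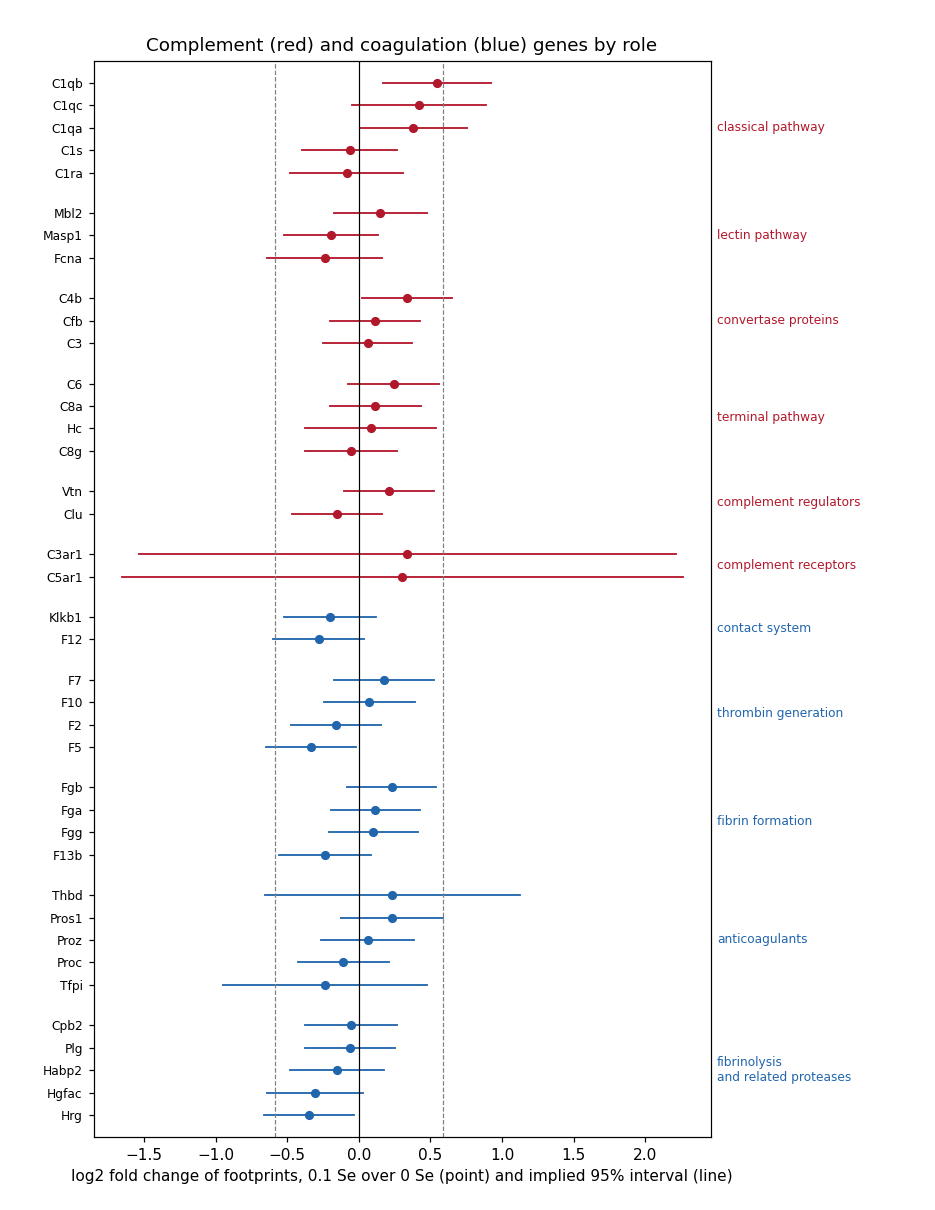
Log2 fold change of footprints (0.1 Se over 0 Se, horizontal axis) of the 39 genes with a row, in 11 role groups, as deposited. Points are fold changes, lines the 95% interval implied by the p-value, and dashed lines mark 1.5-fold; every point lies between the dashed lines, and 4 sparse genes (C3ar1, C5ar1, Thbd and Tfpi) have by far the widest lines.

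The genes of the classical pathway split by subunit. C1q, which binds antibody and starts the pathway, is built from 3 chains with a collagen-like stalk. C1qb had 344 adjusted footprints on 0 Se and 499 on 0.1 Se, summed over the mice of each diet. Its log2 fold change of 0.54 (SE 0.19, 1.46-fold) had a p-value of 0.0046 and an edgeR adjusted p-value of 0.21. C1qa had 380 and 494 footprints, with a log2 fold change of 0.38 (SE 0.19), a p-value of 0.045 and an edgeR adjusted p-value of 0.60. C1qc, the remaining chain, had 127 and 170 footprints, with a log2 fold change of 0.42 (SE 0.24) and a p-value of 0.076. All 3 chains were thus higher on 0.1 Se, and none was called. The log2 fold change of C1qa less that of C1qb was -0.16 with an SE of 0.27, so the chains could not be told apart in their response.

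The 3 C1q genes lie side by side on the minus strand of chromosome 4 of mm9, C1qb at chr4:136436044-136442102, C1qc at chr4:136445719-136448980 and C1qa at chr4:136451832-136454718. Their counted coding sequences shared no 30-base window with another gene, even with 2 mismatches allowed, so their footprints could be placed on 1 gene each. What the chains have in common is shown here by 90 bases of 1 coding exon in which each triplet of codons starts with a glycine codon (GGN, capitals). They open the longest unbroken run of this pattern in each coding sequence, which need not be where the stalk begins. That run held 16 triplets in C1qa (from codon 62), 29 in C1qb (from codon 31) and 16 in C1qc (from codon 68), counting from the start codon.
C1qa, chr4:136452534-136452623, minus strand: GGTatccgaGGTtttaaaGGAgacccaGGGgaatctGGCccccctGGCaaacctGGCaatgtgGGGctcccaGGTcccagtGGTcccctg
C1qb, chr4:136438043-136438132, minus strand: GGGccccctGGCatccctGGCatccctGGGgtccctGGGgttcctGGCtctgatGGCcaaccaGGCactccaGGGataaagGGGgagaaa
C1qc, chr4:136446408-136446497, minus strand: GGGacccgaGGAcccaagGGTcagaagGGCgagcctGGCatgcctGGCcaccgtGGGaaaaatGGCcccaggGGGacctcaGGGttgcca

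Per kilobase of counted coding length, C1qa and C1qb stood at nearly the same level, 87.1 and 81.3 CPM per kilobase over both diets, and C1qc at 30.1. The level of C1qa was 1.07 times that of C1qb and 2.89 times that of C1qc. C1ra and C1s, the proteases that C1q activates, were listed with the opposite sign. C1ra had 461 and 436 footprints (log2 fold change -0.08, SE 0.20) and C1s had 1801 and 1724 (log2 fold change -0.06, SE 0.17). Both signs turned when fold changes were centred on abundant genes. Uniqueness of placement differed here. Of the 30-base windows of C1ra, 71.8% also occur in another gene, mainly C1rb, without a mismatch, and 92.0% with up to 2 mismatches. For C1s the shares were 43.5% and 78.9%, mainly with Gm5077. In the annotation used for the windows, C1ra overlaps C1rb in position and C1s overlaps Gm5077. Part of the sharing may therefore be the same bases listed in both genes. The authors counted uniquely placed footprints on RefSeq sequences instead. The values of C1ra and C1s may thus rest on a part of their sequence, and their levels may be too low by an unknown amount.

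Markers of macrophages were measured beside C1q. Of a list of 16 symbols for Kupffer cells and macrophages, 14 had a row, 9 higher and 5 lower on 0.1 Se, with a median log2 fold change of 0.19. Their footprints summed to 7110 on 0 Se, against 7904 on 0.1 Se (ratio 1.11). Clec4f, a lectin of Kupffer cells, had 1794 and 2263 footprints (log2 fold change 0.34, p-value 0.043), and Cd5l, a secreted macrophage protein, had 731 and 929 (0.35, p-value 0.048). Lower on 0.1 Se without being called were Timd4 (log2 fold change -0.40), Cd163 (-0.34), Laptm5 (-0.21) and Lyz2 (-0.15). Of the markers 2 were called, with opposite signs. Mpeg1, a pore protein of macrophages, was higher with a log2 fold change of 0.79 (edgeR adjusted p-value 0.0011), and Slc40a1, the iron exporter, was lower with -0.64 (edgeR adjusted p-value 0.017). No marker with a row was at 0 in either diet. The part of these markers in the C1q values was not tested, and in whole liver a change in the number of macrophages cannot be told apart from a change in the footprints per cell.

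**Figure D2:**
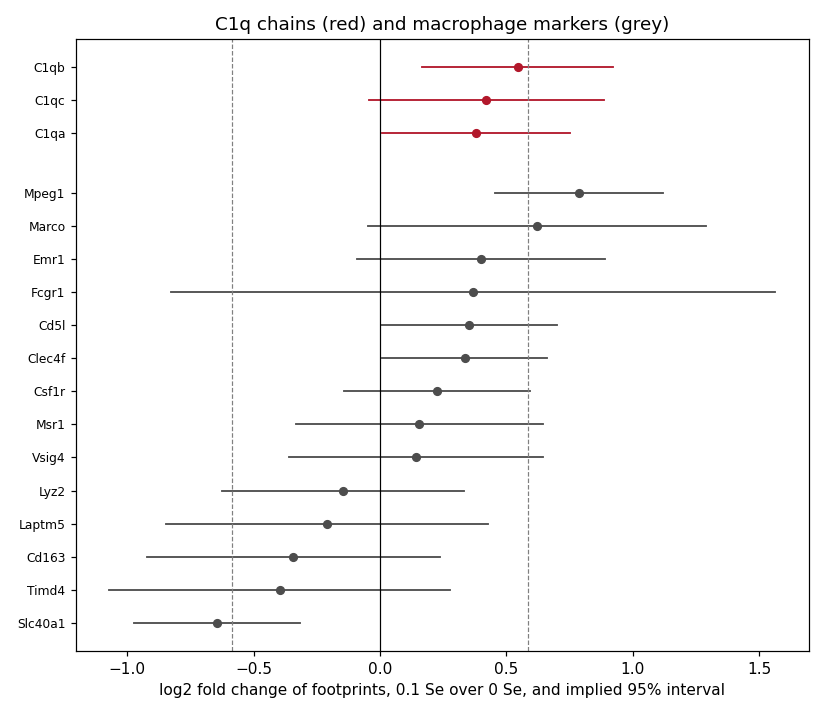
Log2 fold change of footprints (0.1 Se over 0 Se, horizontal axis) of the 3 C1q chains and of the 14 Kupffer cell and macrophage markers with a row, as deposited. Points are fold changes, lines implied 95% intervals and dashed lines 1.5-fold; the C1q chains, at 0.38 to 0.54, lie within the range of the markers, from -0.64 (Slc40a1) to 0.79 (Mpeg1).

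Of the other cell type lists, hepatocyte markers held 15.7% of the CPM, and 7 of 8 with a row were lower on 0.1 Se with a median log2 fold change of -0.07. Endothelial markers had 9 of 13 lower (median -0.13) and stellate cell markers 10 of 11 lower (median -0.36), with Reln called lower. Only 2 of 14 neutrophil and lymphocyte markers had a row. Their part in the values of the members was not tested.

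The lectin pathway recognises microbial sugars through mannose-binding lectins and ficolins, which carry the Masp proteases. Mbl2 had 1850 and 2054 footprints on 0 Se and 0.1 Se, a log2 fold change of 0.15 (SE 0.17). Fcna, the mouse ficolin A, had 302 and 256 (log2 fold change -0.24, SE 0.21, p-value 0.25). Masp1, a protease of the lectin complexes, lay between them with 1570 and 1373 (log2 fold change -0.19, SE 0.17). Mbl2 stood at 388 CPM per kilobase and Fcna at 39.9, with Masp1 at 96.1. Mbl1 and Masp2 had no row.

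The convertase group holds C3 and the proteins that form or activate the enzymes that cleave it. C3, the protein at which the routes meet, was the most abundant complement gene by footprints, with 57482 on 0 Se and 59967 on 0.1 Se, and its log2 fold change was 0.06 (SE 0.16, implied interval -0.25 to 0.37). C4b, which forms the convertase of the classical and lectin routes, had 7449 and 9416 footprints, a log2 fold change of 0.34 (SE 0.16), a p-value of 0.035 and an edgeR adjusted p-value of 0.56. Cfb, the protease of the alternative convertase, had 12741 and 13805 footprints (log2 fold change 0.12, SE 0.16). All 3 were listed higher on 0.1 Se, although C3 turned to -0.02 when fold changes were centred on genes of middle abundance. C2 and Cfd had no row.

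C4b (chr17:34865325-34880827, minus strand) has a near copy, C4a (chr17:34946037-34960409). The annotation lists no coding transcript for C4a, so the exons of its full-length transcript were spliced and used in its place. The coding sequence of C4b and this C4a sequence were 96.1% identical over 5207 aligned bases. Of the 30-base windows of C4b, 50.0% occur without a mismatch in another gene, and 83.0% with up to 2 mismatches. The aligned windows with the most differences, 9 of 30 bases, show where a footprint can be told apart; the capitals mark the bases that differ.
C4b, chr17:34872381-34872410, minus strand: aGGtggtggctCGagggGTtttTgattTaG
C4a, chr17:34953037-34953066, minus strand: aATtggtggctAAagggACtttGgattCaA

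C4a, the sex-limited copy, had 66 and 110 footprints and a log2 fold change of 0.74 (SE 0.28, p-value 0.0084, edgeR adjusted p-value 0.30). It was listed at 2.42 CPM per kilobase, beside 219 for C4b. Reads that match both copies within the mismatch limit were left out by the authors' unique alignment, so the values of both genes remain uncertain.

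Of the terminal pathway, which builds the membrane pore, 4 of 6 genes had a row. C6, which joins the complex after C5b, had 4590 and 5434 footprints (log2 fold change 0.24, SE 0.16, p-value 0.13). C8g, the gamma chain of C8, had 3636 and 3505 (log2 fold change -0.05), a sign that turned under centring on abundant genes. C8a, the alpha chain, lay between with 4291 and 4643 footprints (log2 fold change 0.11, SE 0.16). C8a and C8g proteins are joined in 1 complex, yet the level of C8a was 0.403 times that of C8g, 351 and 871 CPM per kilobase. C8b and C9 had no row. On the deposited scaling, the implied 95% interval lay wholly within 1.5-fold for all 4 genes. Centring on abundant genes took C6 to 0.34, and no interval was derived on that scaling.

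Hc, which encodes C5, was far sparser than its partners. It had 157 and 167 footprints (log2 fold change 0.08, SE 0.23) and a level of 4.45 CPM per kilobase. The level of C3, a related protein, was 358 times higher, and those of C6, C8a and C8g were 298 CPM per kilobase or more. FVB/N is among the inbred strains known to carry a defective Hc allele and to lack C5 in plasma. All mice of both diets were of this strain, and whether the allele bears on the level was not tested.

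Among regulators, Vtn (vitronectin, which keeps the pore from inserting) had 31166 and 36083 footprints and a log2 fold change of 0.21 (SE 0.16, p-value 0.18). Clu (clusterin, a chaperone that also blocks the pore) had 16919 and 15225 footprints with a log2 fold change of -0.15 (SE 0.16, p-value 0.34). Both implied intervals included 0. At 3269 and 1672 CPM per kilobase they ranked 28 and 66 of all genes with a row. Cfi, C4bp and Cd55 had no row. The receptors were at the other end of the scale. C3ar1 had 13 and 16 footprints, a ratio of 1.23 with a counting interval of 0.56 to 2.78. C5ar1 had 18 and 21, a ratio of 1.17 with a counting interval of 0.59 to 2.32. No change of less than several fold was detectable in these 2 genes at this depth.

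The contact system starts the intrinsic route of clotting on charged surfaces. F12 (factor XII), its trigger, had 5280 and 4348 footprints, a log2 fold change of -0.28 (SE 0.16) and a p-value of 0.083. Klkb1 (plasma prekallikrein), which activates factor XII in return, had 3011 and 2621, with -0.20 (SE 0.16) and a p-value of 0.22. Both were listed lower on 0.1 Se under either centring, and neither was called. F11 and Kng1 had no row.

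The genes of thrombin generation were split in sign. F7 (factor VII), which starts clotting with tissue factor, had 683 and 770 footprints and a log2 fold change of 0.17 (SE 0.18, p-value 0.33). F5 (factor V), the cofactor of the enzyme that makes thrombin, had 7928 and 6300 footprints, with a log2 fold change of -0.33 (SE 0.16), a p-value of 0.039 and an edgeR adjusted p-value of 0.58. F10 (factor X), the protease of that enzyme, had 5634 and 5924 footprints (log2 fold change 0.07, SE 0.16). F2 (prothrombin), its substrate, had 15251 and 13656 (log2 fold change -0.16, SE 0.16). F5 was the only gene of the 4 with an implied interval that left out 0, from -0.65 to -0.02. F2 had the highest level of the group, 1077 CPM per kilobase, and F7 the lowest, 76.4. F10 and F7 are neighbours on chromosome 8 (chr8:13037308-13056676 and chr8:13026034-13035809), and the level of F10 was 7.13 times that of F7. F9 had no row.

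The fibrinogen chains had the highest footprint levels per length of the list. Fga had 75878 footprints on 0 Se and 82168 on 0.1 Se, Fgb 56304 and 66041, and Fgg 56353 and 60460. The 3 genes lie within 1 stretch of chromosome 3, Fgg at chr3:82811781-82818975, Fga at chr3:82830075-82838036 and Fgb at chr3:82846169-82853725. Their proteins assemble in equal numbers, and their levels were close, at 6554, 5908 and 6250 CPM per kilobase for Fga, Fgb and Fgg (ranked 16, 19 and 18). The level of Fga was 1.11 times that of Fgb and 1.05 times that of Fgg.

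All 3 fibrinogen chains were listed higher on 0.1 Se, by log2 fold changes of 0.11 for Fga, 0.23 for Fgb (SE 0.16, p-value 0.15) and 0.10 for Fgg. On the deposited scaling, the implied intervals reached from -0.21 at the lowest to 0.54 at the highest and lay within 1.5-fold for each chain. Centring on abundant genes took Fgb to 0.33, and no interval was derived on that scaling. F13b, the carrier subunit of the factor that crosslinks fibrin, had 2693 and 2284 footprints, a log2 fold change of -0.24 (SE 0.16, p-value 0.15) and a level of 171 CPM per kilobase. Together the 4 genes of fibrin formation held 2.69% of the CPM, beside 6.05% for all 39 members.

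**Figure D3:**
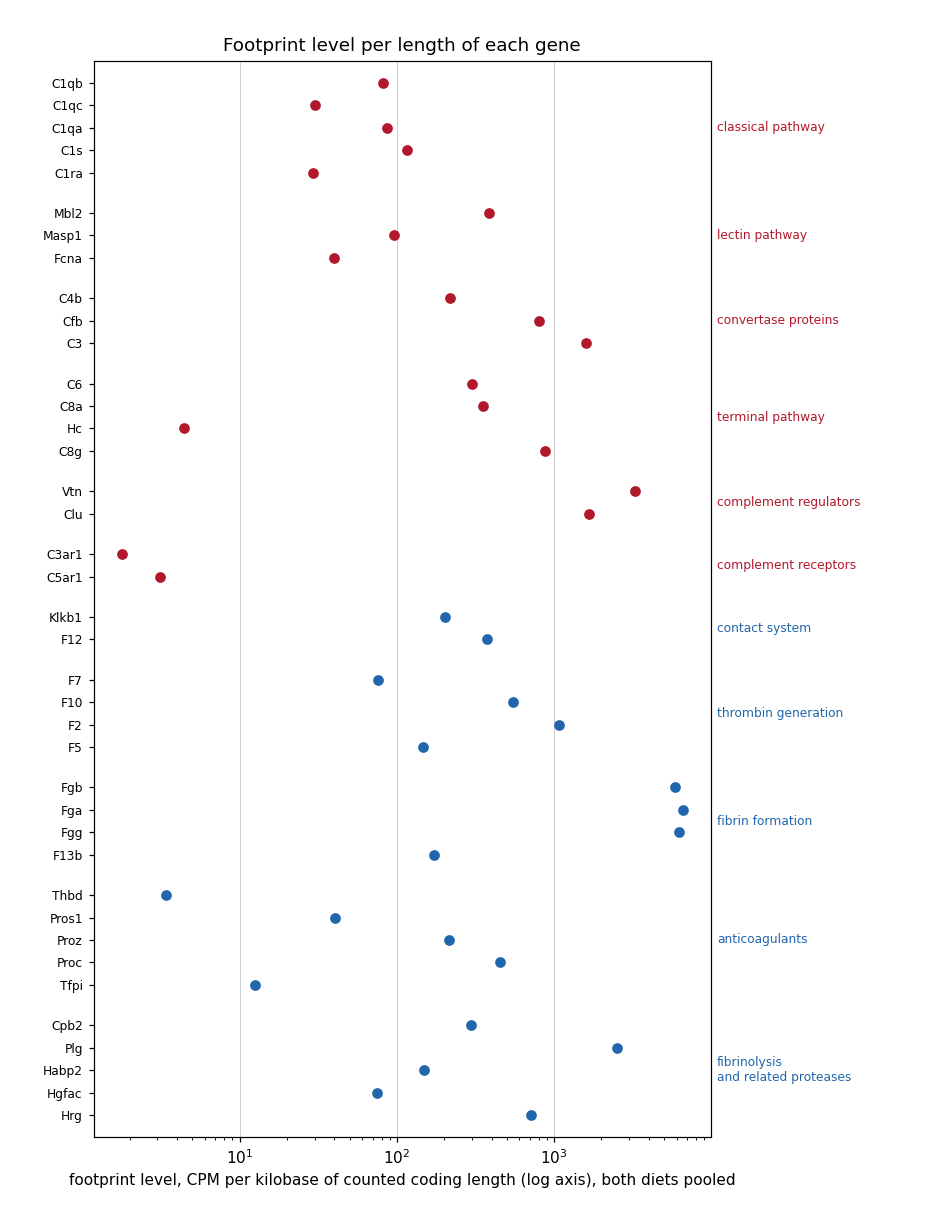
Footprint level of the 39 genes with a row (CPM per kilobase of counted coding length, log axis), pooled over both diets, in the same role groups; each point is 1 gene. The fibrinogen chains lie between 5908 and 6554 CPM per kilobase, within 1.11 times of each other, and C3ar1 lies lowest at 1.78.

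The anticoagulants restrain these enzymes. Thbd (thrombomodulin), the endothelial receptor that turns thrombin toward protein C, had 35 and 41 footprints, a ratio of 1.17 with a counting interval of 0.73 to 1.89. Tfpi, the inhibitor of tissue factor, had 61 and 52, a ratio of 0.85 with a counting interval of 0.58 to 1.25. Pros1 (protein S), the cofactor of activated protein C, had 546 and 641 footprints (log2 fold change 0.23, SE 0.18, p-value 0.20). Proz (protein Z) had 1780 and 1857 (0.06), and Proc (protein C) had 4761 and 4412 (log2 fold change -0.11). Proc had the highest level of the group, 455 CPM per kilobase, and Thbd the lowest, 3.39. The levels of Proc and Proz (214 CPM per kilobase) exceeded that of Pros1, at 40.6.

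Fibrinolysis and the related proteases had 5 of 5 genes listed lower on 0.1 Se, although Plg and Cpb2 turned to 0.03 and 0.04 when fold changes were centred on abundant genes. None was called, and the median log2 fold change was -0.15. Plg (plasminogen), the precursor of plasmin, had 45348 and 43446 footprints, a log2 fold change of -0.06 (SE 0.16) and a level of 2498 CPM per kilobase, rank 40. Cpb2, the carboxypeptidase that slows fibrinolysis, had 2713 and 2615 footprints and a log2 fold change of -0.05 (SE 0.16). Habp2, a protease that binds hyaluronan, had 1752 and 1576 footprints (log2 fold change -0.15, SE 0.17). Hgfac, the activator of hepatocyte growth factor, had 1162 and 939 (log2 fold change -0.31, SE 0.17, p-value 0.073).

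Hrg, the histidine-rich glycoprotein that binds plasminogen and heparin, was the lowest of all members. It had 9229 footprints on 0 Se and 7262 on 0.1 Se, a log2 fold change of -0.35 (SE 0.16, 0.79-fold), a p-value of 0.031 and an edgeR adjusted p-value of 0.54. The implied interval ran from -0.66 to -0.03. Its level was 712 CPM per kilobase. No 30-base window of Hrg was shared with another gene. The repeat that gives the protein its name is shown by the 30 codons with the most histidine codons (CAC or CAT, capitals), 17 of 30, at codons 354 to 383 within 1 coding exon.
Hrg, chr16:22961106-22961195, plus strand: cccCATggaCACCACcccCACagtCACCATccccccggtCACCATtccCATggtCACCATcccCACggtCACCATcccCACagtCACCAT

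The members were abundant for this table, with a median of 357 CPM beside 15.4 for all genes with a row. A log2 CPM of 8 or higher was listed for 22 of the 39. In these, 11 were higher and 11 lower on 0.1 Se, beside 33.3% higher among the 402 genes of that abundance. At 10 or higher, 7 of 11 members were higher, beside 33 of 109 genes. Of the 22 members at 8 or higher, 4 exceeded 1.2-fold in either direction, beside 100 of the 402 genes. On the deposited scaling, the footprints of all members summed to 441699 on 0 Se, against 462701 on 0.1 Se (ratio 1.05). Over all genes with a row the sums were 6459889 and 6286902. Complement gave 145297 and 155288, and coagulation and fibrinolysis gave 296402 and 307413. Within coagulation and fibrinolysis, only fibrin formation had a higher sum on 0.1 Se on this scaling (191228 and 210953). The sums were lower for the contact system (8291 and 6969) and thrombin generation (29496 and 26650). They were also lower for the anticoagulants (7183 and 7003) and for fibrinolysis and related proteases (60204 and 55838). No sum was derived under either centring, so which diet had the higher sum may depend on the scaling.

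**Figure D4:**
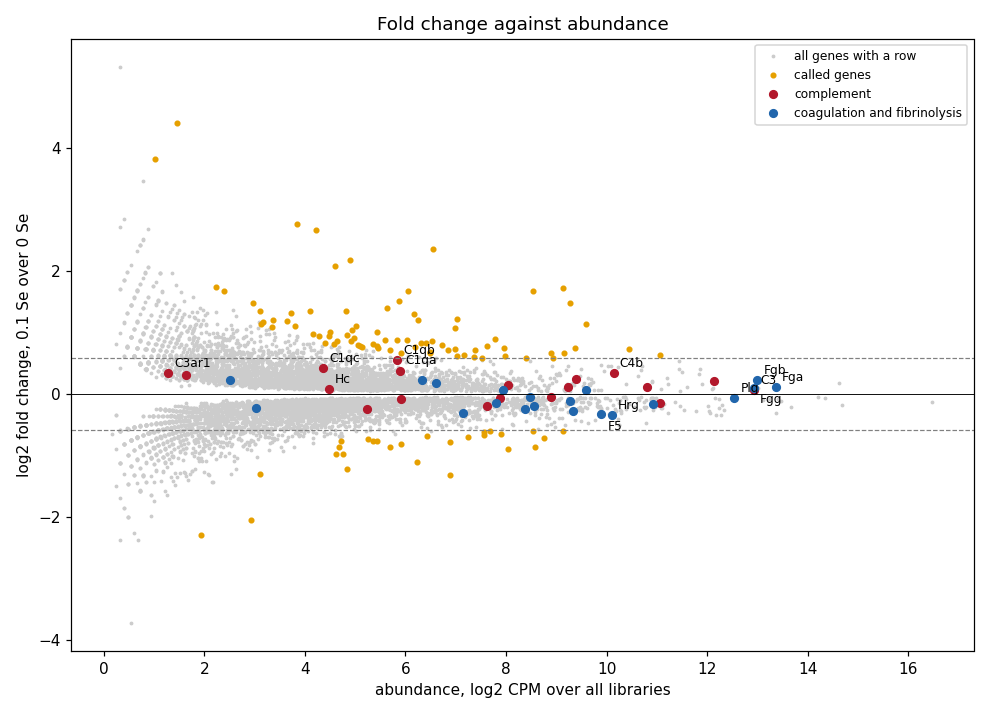
Log2 fold change (0.1 Se over 0 Se, vertical axis) against abundance (log2 CPM over all libraries, horizontal axis) for the 7500 genes with a row, each point 1 gene, with the 107 called genes and the 2 branches of members in colour; dashed lines mark 1.5-fold. The members lie mostly to the right and inside the dashed lines, and the empty band near 0 is where tests have no row.

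This abundance set what could be seen. The p-value part of a call needed a change of about 3.48 SE, since the highest p-value of a called gene was 0.0005. For the 22 members at a log2 CPM of 8 or higher the median SE was 0.16, so 1.47-fold would have met it (1.49-fold for the member of largest SE), and the threshold of 1.5-fold was the limit. For the 13 members at 4 to 8 the p-value part needed about 1.55-fold. For 25 of 39 members (64.1%, beside 22.5% of all genes with a row) the implied 95% interval lay wholly within 1.5-fold in either direction. For the other members a change of 1.5-fold remained within the interval. At a log2 CPM of 8 or higher, the interval lay within 1.5-fold for 81.8% of members, beside 75.4% of genes of that abundance. These intervals rest on the deposited scaling and on the single dispersion that the p-values imply for all genes. Any extra spread of 1 gene between mice is therefore not included. Whether mice or libraries entered the test as replicates is not known.

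Other genes of the same pathways were read from a wider list. Of 28 further complement genes, 16 had a row, 6 higher and 10 lower with a median log2 fold change of -0.13, and none was called. The extremes were Itgb2, the shared chain of the leukocyte complement receptors, at 0.81 (p-value 0.0017, edgeR adjusted p-value 0.11), and Colec12, a scavenger receptor, at -0.35. Of 30 further coagulation and fibrinolysis genes, 14 had a row, 5 higher and 9 lower with a median of -0.20, and none was called. There the extremes were Fgl2, a fibrinogen-like prothrombinase, at 0.93 (53 and 97 footprints, p-value 0.0033, edgeR adjusted p-value 0.17), and Plau, the urokinase activator of plasminogen, at -0.80 on 12 and 7 footprints (p-value 0.37).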

How the data were processed

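Livers were profiled, per the labels, in 8 libraries, grouped by diet from the sample titles. In the study's methods, adapters and ribosomal RNA reads were removed, and reads with a unique Bowtie alignment of up to 2 mismatches to the longest RefSeq isoform (mm9) were counted without the first 15 and last 3 codons. The authors tested genes over 1 CPM in at least 3 samples in edgeR (version and test not given in the sources used here). In the file, the log2 fold change, the linear fold (ratio) and the log2 CPM were deposited by the authors, as were the p-values and the Benjamini-Hochberg adjusted p-values. All are the authors' own comparison. Counts per library were not analysed here, so library depths are unknown, and the count model planned for per-library counts was not run.

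The number of tests, 10398, followed from adjusted p-values and ranks (392 of 413 ranks matched within 1 test). The SE was the log2 fold change over the normal quantile of its p-value, which is only approximate for sparse genes. Footprint sums per diet, on the authors' depth-adjusted scale, were recovered as the pair of whole numbers whose exact negative binomial test gives the p-value, with 1 dispersion of 0.0121 (biological coefficient of variation 0.11) if each diet entered as 2 samples, or a coefficient of 0.156 if as 4. How the libraries of a mouse were joined is not stated, so p-values and SEs may treat libraries, not mice, as replicates. A single pair was found for 6691 genes; for 782 mostly abundant genes, 27 of the 39 members among them, the sums were estimated from fold change and CPM. Depth came to 7471076 adjusted footprints per diet. Clopper-Pearson 95% intervals of ratios cover counting error only. Level is CPM over the table's coding length. Windows of 30 bases were compared between coding sequences of the mm9 genome (GENCODE annotation), the source of all positions and sequences. For C4a, which has no annotated coding transcript, the spliced exons of its full-length transcript were used. Scripts were tested on simulated data (Python 3.11.15, numpy 2.4.6, scipy 1.17.1, pandas 2.3.3, biopython 1.88, matplotlib 3.10.9).

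The members and lists were chosen with earlier results of these data known. Named with full values were members with an unadjusted p-value under 0.05, the extremes of each role group and the 5 highest and 5 lowest levels; C1qc and others were added after their values were seen. The 12 members without a row were untested or had p-values above 0.311. Scaling, dispersion, filter and thresholds were varied.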

Additional observations from a re-analysis of the deposited data

How the results depend on the processing

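No member was called under any of the 11 alternatives run. As no member exceeded 1.5-fold as deposited, most of these alternatives could not have called one. Only leaving out the fold threshold, or centring on abundant genes, which took C1qb to a log2 fold change of 0.64, could have done so. Unadjusted p-values under 0.05 were found for 5 members as deposited and for 28 with counting error alone. With a biological coefficient of variation of 0.2, 0.3 or 0.4 there were 0. Of the 5 as deposited, centring on a log2 CPM of 4 to 6 took the exact-test p-values of C1qa and C4b to 0.12 and 0.11. Centring on abundant genes took those of F5 and Hrg to 0.14 and 0.12. Other members moved the opposite way. C1qc (0.029), C6 (0.036) and Fgb (0.040) fell under 0.05 when centred on abundant genes, which left 6 members under 0.05. F12 (0.025) and Hgfac (0.023) did so when centred on a log2 CPM of 4 to 6, which left 5. With counting error alone, adjusted p-values of members went down to 6.69e-168, and the fold threshold left them uncalled. In the other alternatives the lowest adjusted p-value of a member was 0.21 as deposited, 0.18 among genes with a log2 CPM over 3, 0.25 when fold changes were centred on a log2 CPM of 4 to 6, 0.055 when centred on abundant genes (log2 CPM 8 or higher), and 1 with Bonferroni adjustment or the larger coefficients. The 107 called genes of the table became 41 at a 2-fold threshold, 34 with Bonferroni adjustment, 298 with counting error alone, and 18, 6 and 0 (46 unadjusted) with a coefficient of 0.2, 0.3 and 0.4. The higher genes were 80 of 107 as deposited, 130 of 146 when centred on abundant genes and 55 of 106 when centred on a log2 CPM of 4 to 6. Centring on abundant genes turned C1ra to 0.012, C1s to 0.033, C8g to 0.043, Cpb2 to 0.043 and Plg to 0.034, and centring on a log2 CPM of 4 to 6 turned C3 to -0.021, F10 to -0.0099 and Proz to -0.021. The exact test on the recovered sums, an alternative chosen after seeing the data, called the same 107 genes. No paired analysis was possible because no mouse number is shared by both diets and the table holds no value per mouse, and for the latter reason leaving out each mouse was not run.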
